A study of Saccharomyces cerevisiae with 7 samples.

Results

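Small-subunit ribosomal protein genes, whose standard names begin with RPS and a digit, made up 27 of the 337 genes for which nascent RNA on both sides of the poly(A) site was measured in TFIIB mutant and wild type yeast. They were taken by name, with mitochondrial ribosomal proteins left out, but the choice was made with earlier results of these data known. The R64 annotation of Saccharomyces cerevisiae names 56 small-subunit ribosomal protein genes in all. One more, RPS18A, is listed only in a second part of the table and is given apart. GRO-seq maps engaged RNA polymerase II by letting it extend its transcripts with BrUTP in permeabilized cells, after which the labelled RNA is captured and sequenced. Libraries came from 3 samples of the sua7-1 mutant (replicates 2, 3 and 4) and 4 samples of wild type, called WT (replicates 1 to 4). Cells were grown in YPD at 30 °C to an A600 of 0.8, and the run-on lasted 5 min at 30 °C.

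Both strains share the BY4733 background, which is MATα and carries the alleles ura3Δ0, met15Δ0, leu2Δ0, trp1Δ63 and his3Δ200. The mutant differs by the allele sua7-1, a glutamate-to-lysine change in TFIIB, the general factor that brings the polymerase to the promoter. It is known as cold-sensitive and shifts transcription start sites, and it is a single allele of 1 gene. The values hold no sequence, and SUA7 itself is not among the 337 genes, so the genotype could not be read from them. The measurement for each gene and library is the readthrough index (RTI), the authors' ratio of reads from 50 to 500 nt after the mRNA 3' end to reads in the mirror window before it. An RTI near 0 means that almost all of the signal stops before the downstream window. Because the RTI is a ratio, more reads downstream and fewer reads upstream cannot be told apart, and it says nothing of how strongly a gene is transcribed. Read numbers are not part of these values, so the depth is unknown and no counting error is given.

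In yeast, the polymerase normally runs past the poly(A) site only briefly. The CPF and CF1 complexes cut the transcript, the exonuclease Rat1 degrades the RNA that is still being made, and the polymerase is released. The UA-rich efficiency element of the poly(A) signal is bound by Hrp1, a CF1 component. The genes for ribosomal proteins are among the most heavily transcribed in growing yeast, hold a large share of its introns, and often exist as 2 copies that encode nearly the same protein, named A and B. The proteins described here build the 40S subunit, which binds initiation factors, scans the mRNA and decodes it.

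In the mutant most of these genes had more nascent RNA after the mRNA 3' end relative to before it. The RTI rose for 20 of the 27 genes and fell for 1, RPS12, and 6 passed the test in neither direction, whereas after division of each library by its median RTI over all genes 0 rose and 3 fell. Of all 337 genes tested, 75.1% rose and 0.89% fell, so the 74.1% of RPS genes that rose is near the background. The test was limma on log2(RTI + 0.002) over all 337 genes, and calls required both an adjusted p under 0.05 (Benjamini-Hochberg) and a change of more than 1 on the log2 scale. The median log2 fold change of the RPS genes was 2.40, against 2.44 over all genes tested. Division by the library medians took these values to -0.21 and -0.20, because the shift shared by all genes is then removed. Thus the rise of the RPS genes was a rise in absolute RTI, of about the size seen over all genes.

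A rank view without any pseudocount gave a similar picture. In 21 of the 27 genes the lowest mutant library was higher than the highest WT library, compared with 78.3% of all genes. For RPS12 every mutant library lay below every WT library, as for 2.67% of all genes. The mean RTI was higher in the mutant for 25 of the 27 genes and for 319 of all 337 genes. The median ratio of the strain means was 6.42, against 6.81 over all genes. With library medians divided out, only 2 RPS genes kept every mutant library above every WT library.

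**Figure D1:**
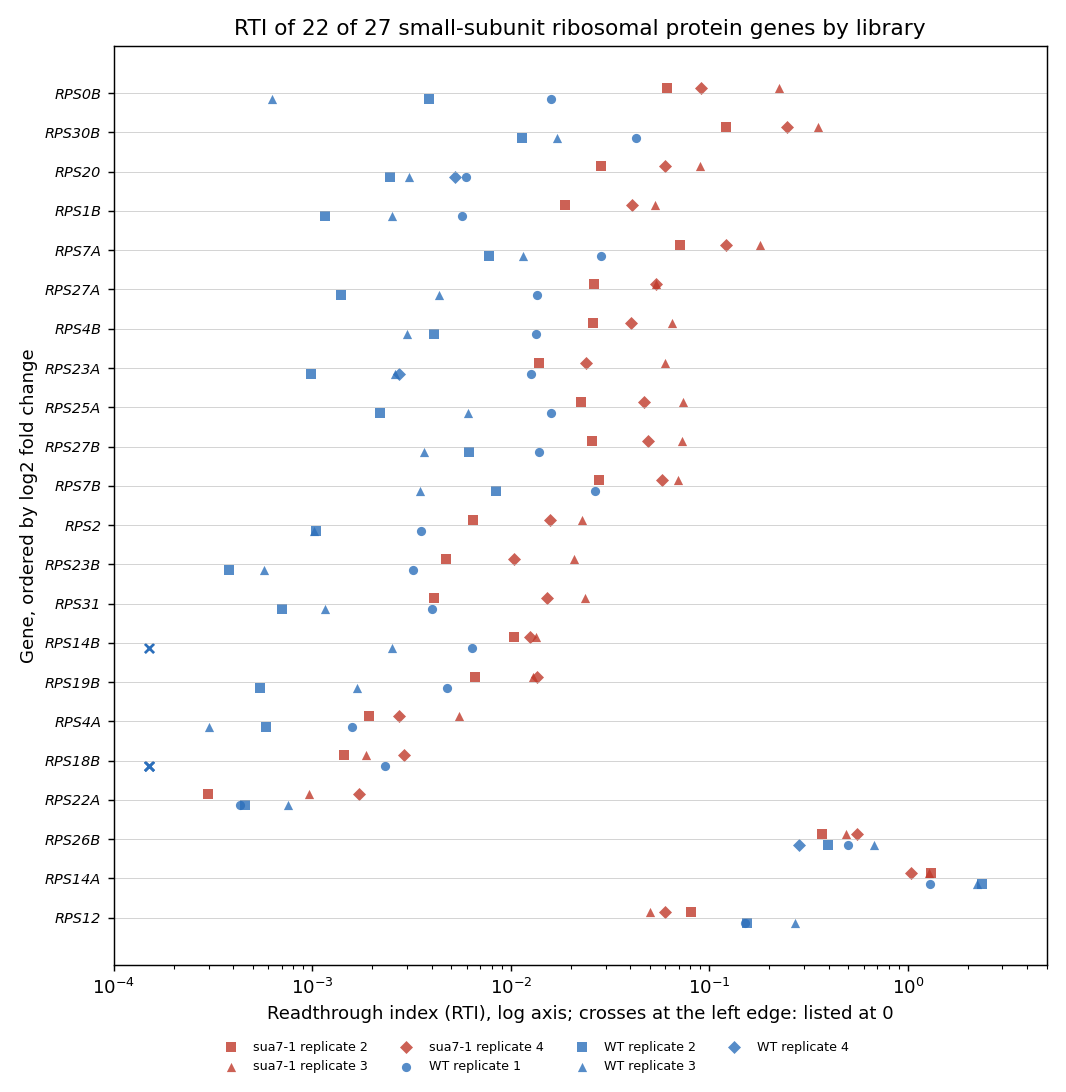
RTI of 22 of the 27 genes (rows, ordered by log2 fold change) on a log axis, with 1 point per library, red for sua7-1 and blue for WT, and a cross at the left edge where a library is listed at 0. In 17 of them all red points lie to the right of all blue points. RPS26B and RPS14A lie far to the right in both strains, and in RPS12 the red points lie to the left.

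Seen by library, the median RTI of the RPS genes was 0.0242, 0.0598 and 0.0467 in sua7-1 replicates 2, 3 and 4. For WT replicates 1 to 3 it was 0.0118, 0.00191 and 0.00260, and in WT replicate 4 it was 0.00282 over only 5 genes. Every mutant median lay above every WT median. The library medians averaged 0.0436 ± 0.0180 (SD, n = 3) over the mutant and 0.00478 ± 0.00469 (SD, n = 4) over WT. The ratio of these averages was 9.12, and 8.03 without WT replicate 4. Over all genes these ratios were 6.95 and 8.73. WT replicate 4 has an RTI for only 38 of the 337 genes, so that for most genes the fit compared 3 mutant with 3 WT libraries.

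The libraries of a strain differed by a shift that most RPS genes shared. Replicate 2 was the lowest mutant library in 25 of the 27 genes and replicate 3 the highest in 20, close to the 83.1% and 80.1% of all genes with a value in each mutant library. WT replicate 1 was the highest of WT replicates 1 to 3 in 22 of the 27 genes and in 83.5% of all genes. The RPS genes with an RTI of at least 0.01 numbered 18, 24 and 23 in sua7-1 replicates 2, 3 and 4, against 15, 4 and 5 in WT replicates 1 to 3. As shares these are 66.7%, 88.9% and 85.2%, against 55.6%, 14.8% and 18.5%. Over all genes with a value the shares were 77.1%, 92.0% and 86.4%, against 60.6%, 30.8% and 32.1%. The order of the RPS genes within a library was similar between libraries of a strain, with Spearman correlations across genes of 0.90 to 0.97 in the mutant against 0.81 to 0.87 between WT replicates 1 to 3. Across the 27 genes the mean RTI in WT and in the mutant had a Spearman correlation of 0.90 (0.81 across all genes). These describe genes that share libraries and are not independent.

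Among the large rises was that of RPS0B (YLR048W), for a protein of the platform that is needed for late steps of 40S maturation. Its RTI was 0.0614, 0.225 and 0.0910 in sua7-1 replicates 2, 3 and 4, against 0.0158, 0.00388 and 0.000629 in WT replicates 1 to 3, and values of other genes follow in the same replicate order. Its lowest mutant value was still above its highest WT value, although both strains spread widely. Its log2 fold change of 4.08 had a standard error of 0.73 (adjusted p = 0.00067 from limma), and the gene held place 21 among all 337. It lies on chromosome XII of R64 from 242232 to 243349 on the forward strand, with 1 intron. RPS30B, encoding one of the smallest proteins of the subunit, had the highest mean RTI in the mutant among the genes that rose. It had 0.121, 0.353 and 0.246 in the mutant against 0.0429, 0.0114 and 0.0171 in WT replicates 1 to 3, a log2 fold change of 3.29.

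RPS20 (YHL015W) has a value in every library. This single-copy gene encodes a protein of the head that is ubiquitinated by Hel2 when ribosomes collide. Its RTI was 0.0286, 0.0899 and 0.0596 in the mutant against 0.00591, 0.00245, 0.00306 and 0.00524 in WT replicates 1 to 4. The 4 WT libraries lay close together, and the log2 fold change of 3.22 had a standard error of 0.50 (adjusted p = 0.00033 from limma). RPS1B, whose protein sits on the platform near the mRNA exit, went from 0.00567, 0.00116 and 0.00251 in WT replicates 1 to 3 to 0.0187, 0.0535 and 0.0406 in the mutant. Its strains did not overlap either, and its log2 fold change was 2.94.

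**Figure D2:**
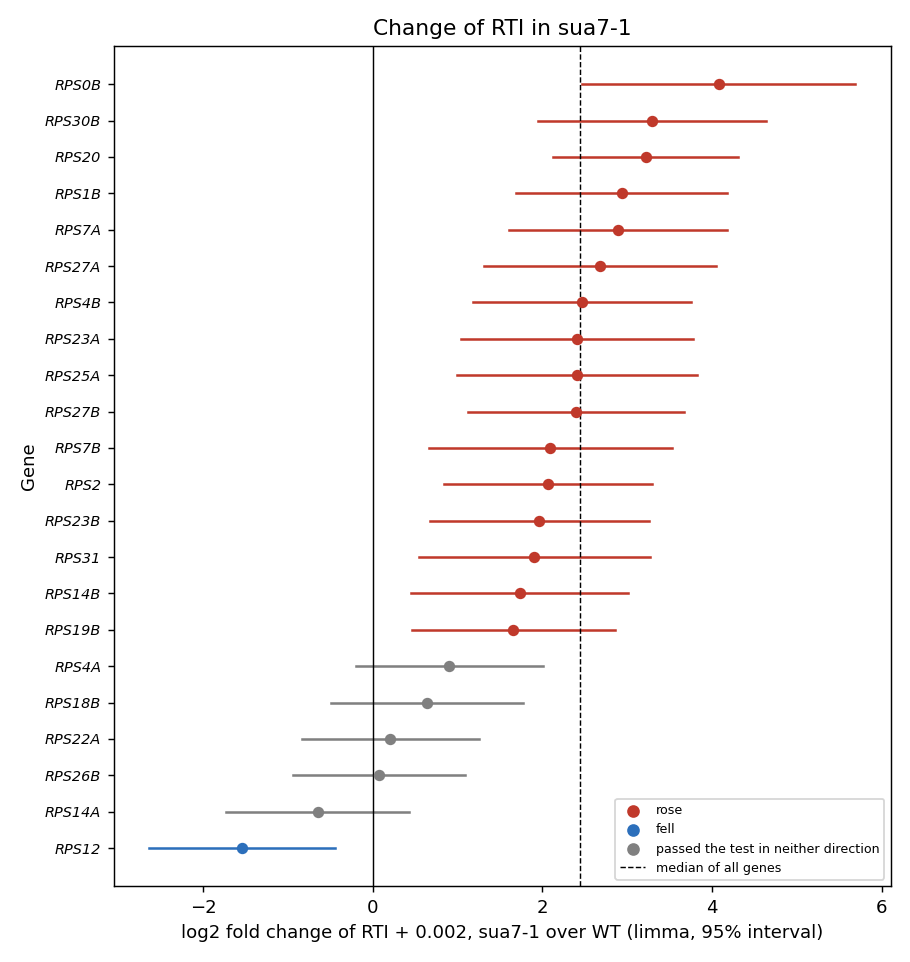
log2 fold change of RTI + 0.002 in sua7-1 over WT for 22 of the 27 genes, with the 95% interval from limma. Red genes rose, the blue gene fell and grey genes passed the test in neither direction, and the dashed line marks the median of all genes, 2.44. The intervals of most genes that rose include this line, and 0 rose once library medians were divided out.

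Among the other genes of the head, RPS25A rose, with a log2 fold change of 2.41. RPS25A, whose protein is known for its part in initiation at internal ribosome entry sites, had 0.0226 to 0.0740 in the mutant against 0.00220 to 0.0160 in WT. RPS31, which encodes a ribosomal protein made as a fusion to ubiquitin, and RPS19B rose by 1.90 and 1.66 on the log2 scale. Their lowest mutant values, 0.00411 and 0.00659, lay just above their highest WT values, 0.00400 and 0.00479. RPS31 missed the threshold once sua7-1 replicate 3 was left out (adjusted p = 0.075 from limma), and likewise for sua7-1 replicate 4 (0.054) or WT replicate 3 (0.057). RPS19B missed it without sua7-1 replicate 3 (adjusted p = 0.055 from limma), sua7-1 replicate 4 (0.079), WT replicate 2 (0.067) or WT replicate 3 (0.057). In all, 7 of the 9 measured head genes rose, with a median log2 fold change of 2.41.

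In the body and platform, 13 of 18 genes rose and 5 passed in neither direction, with a median log2 fold change of 2.25. Here RPS2 encodes a single-copy protein of the mRNA entry that affects decoding accuracy. It had 0.00645, 0.0228 and 0.0158 in the mutant against 0.00352, 0.00105 and 0.00101 in WT replicates 1 to 3, a log2 fold change of 2.07. Both parts of the subunit thus had similar medians, and no test of their difference was made.

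For 7 duplicated genes both copies were measured, which allows a comparison of genes for nearly the same protein. The copies kept the same order in all 6 libraries compared for 4 of the 7 pairs, RPS4, RPS14 and RPS23 among them. In coding sequence, members that have a copy are 84.3% to 98.1% identical to it. The longest identical run between copies is 23 to 158 nt in the coding sequence but only 8 to 11 nt in the 500 nt after the stop codon. Thus reads of the coding sequence can match both copies, whereas long identical runs are lacking in the 500 nt after the stop codon. The RTI windows are set from the mRNA 3' end, and runs were not compared within those windows. The sources used here do not say how the authors placed reads that match both copies, and the part of such reads in the RTI was not tested. The last 60 coding bases are shown for RPS14 and RPS4 because the upstream window covers the end of the gene. They run 5' to 3', stop codon included, with capitals where the copies differ.
RPS14A (R64, chrIII:177500-177559, reverse strand): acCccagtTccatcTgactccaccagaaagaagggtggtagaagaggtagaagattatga
RPS14B (R64, chrX:74552-74611, forward strand): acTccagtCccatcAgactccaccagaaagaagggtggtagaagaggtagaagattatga
RPS4A (R64, chrX:702027-702086, reverse strand): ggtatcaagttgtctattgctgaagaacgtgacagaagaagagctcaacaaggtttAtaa
RPS4B (R64, chrVIII:504476-504535, reverse strand): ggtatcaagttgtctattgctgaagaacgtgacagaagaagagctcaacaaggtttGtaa

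The copies of RPS14, for a platform protein that in yeast binds its own RPS14B transcript, stood furthest apart. RPS14A (YCR031C) had 1.32, 1.28 and 1.04 in the mutant against 1.29, 2.37 and 2.22 in WT replicates 1 to 3, so that as many or more reads lay downstream as upstream in every library. These values equal ratios of small whole numbers, so they may rest on few reads, and the read numbers were not available. RPS14A had the second highest mean RTI of all 337 genes in WT, and the strains overlapped (log2 fold change -0.65, adjusted p = 0.24 from limma). RPS14B (YJL191W) had only 0.0104, 0.0134 and 0.0125 in the mutant against 0.00634, 0 and 0.00253 in WT replicates 1 to 3. It rose by 1.73 on the log2 scale, but missed the threshold without sua7-1 replicate 3 (adjusted p = 0.056 from limma), sua7-1 replicate 4 (0.055) or WT replicate 2 (0.088). With the WT value of 0 taken as missing its log2 fold change was 1.19 (adjusted p = 0.072 from limma), and at a pseudocount of 0.01 it was 0.80, under the limit of 1. The snoRNA gene SNR65 lies on the opposite strand 217 nt after the stop codon of RPS14A. For RPS14A the next gene on its own strand, SYP1, begins 1061 nt away.

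RPS4A and RPS4B, for a protein of the body and the most alike pair in sequence, also differed in level. In WT the mean RTI of RPS4B was 8.31 times that of RPS4A, and in the mutant 12.9 times. RPS4A had 0.00193, 0.00549 and 0.00274 in the mutant against 0.00158, 0.000583 and 0.000303 in WT replicates 1 to 3. Its strains were separated, but at a log2 fold change of 0.90 (adjusted p = 0.12 from limma) it passed in neither direction, while at a pseudocount of 0.0005 it rose by 1.57 (adjusted p = 0.045 from limma). RPS4B had 0.0259, 0.0650 and 0.0403 in the mutant against 0.0134, 0.00410 and 0.00299 in WT replicates 1 to 3, a rise of 2.47 on the log2 scale.

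RPS23 encodes a protein of the decoding center. RPS23A had 0.0139, 0.0598 and 0.0239 in the mutant against 0.0126, 0.000987, 0.00260 and 0.00272 in WT replicates 1 to 4. RPS23B had 0.00474, 0.0208 and 0.0103 in the mutant against 0.00320, 0.000382 and 0.000570 in WT replicates 1 to 3. RPS23A was above RPS23B in all 6 libraries, and both rose, by 2.41 and 1.96 on the log2 scale, though RPS23B missed the threshold without sua7-1 replicate 3 (adjusted p = 0.051 from limma).

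In the RPS7 and RPS27 pairs both copies rose. The mean WT RTI of copy A was 1.24 and 0.81 times that of copy B, although the copies differed more in single WT libraries. RPS7A, whose protein belongs to the body, had 0.0708, 0.180 and 0.121 in the mutant against 0.0284, 0.00779 and 0.0115 in WT replicates 1 to 3. RPS7B had 0.0278, 0.0698 and 0.0576 in the mutant against 0.0265, 0.00846 and 0.00350 in WT replicates 1 to 3. RPS7A was above RPS7B in 5 of the 6 libraries, and the log2 fold changes were 2.89 and 2.10, though RPS7B missed the threshold without sua7-1 replicate 3 (adjusted p = 0.058 from limma) or WT replicate 3 (0.072). RPS27A, for a zinc-finger protein of the body, had 0.0262, 0.0541 and 0.0536 in the mutant against 0.0135, 0.00140 and 0.00432 in WT replicates 1 to 3. RPS27B had 0.0257, 0.0731 and 0.0494 in the mutant against 0.0138, 0.00614 and 0.00366 in WT replicates 1 to 3. Their log2 fold changes were 2.68 and 2.40, and neither copy was above the other throughout a strain.

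Whether the copies differed in their change was tested for each pair on the log2 ratio of the copies, over 3 mutant and 3 WT libraries. The smallest two-sided p that this design allows is 0.1, so that no pair could pass. This value was reached by 3 of the 7 pairs, and over all 7 the differences ranged from -2.38 to 1.44. RPS14 and RPS4 were among the 3, and there the change of copy A minus that of copy B was -2.38 and -1.56 on the log2 scale (exact permutation test, p = 0.1 and adjusted p = 0.23 over 7 pairs). For RPS7, RPS23 and RPS27 the difference was between 0.28 and 0.79, with exact permutation p from 0.3 to 0.7.

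**Figure D3:**
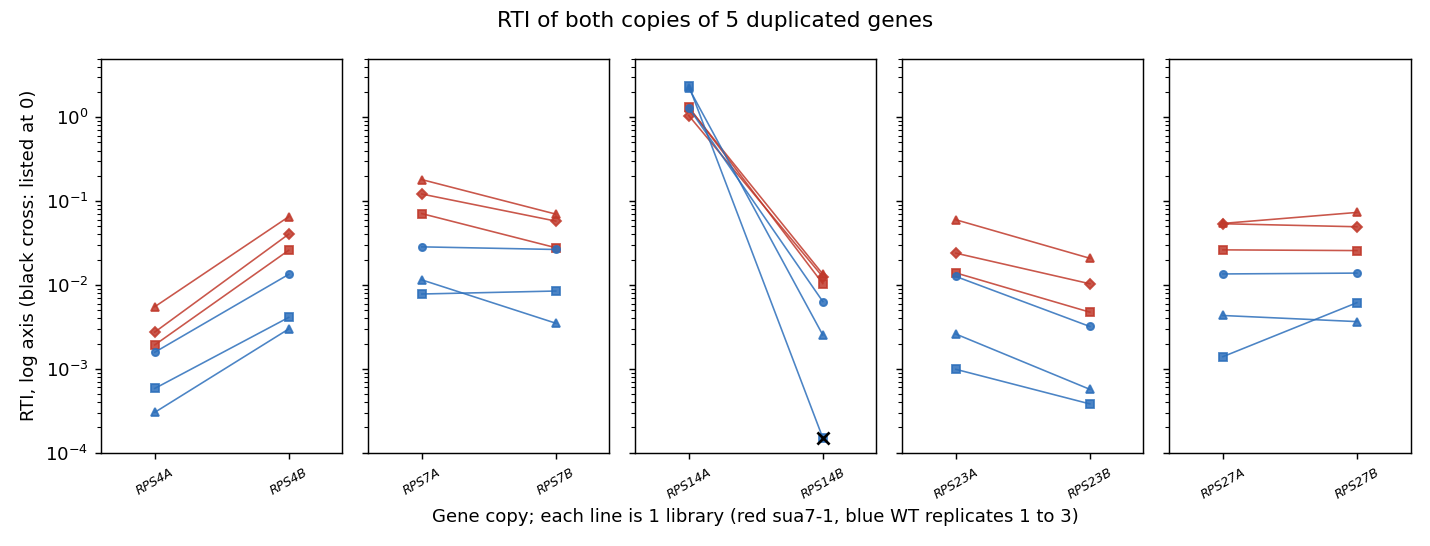
RTI (log axis) of copy A and copy B of 5 duplicated genes, with 1 line per library, red for sua7-1 and blue for WT replicates 1 to 3, and a black cross where a library is listed at 0. In RPS14 every line falls steeply from A to B and in RPS4 every line climbs. The RPS27 lines are nearly level except in WT replicate 2, where the line climbs from 0.00140 to 0.00614.

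In 3 genes the mean WT RTI was 0.1 or more, and RPS14A was joined by RPS26B and RPS12. RPS26B (YER131W) encodes a protein that contacts the mRNA upstream of the start codon. It had 0.368, 0.488 and 0.558 in the mutant against 0.50, 0.398, 0.678 and 0.284 in WT replicates 1 to 4, and the strains overlapped throughout. The log2 fold change was 0.07, with a 95% interval from -0.94 to 1.08 (adjusted p = 0.90 from limma). Its mean RTI was the ninth highest of all 337 genes in WT. On chromosome V of R64 it spans 423952 to 424311 on the forward strand, and the snoRNA gene SNR4 begins on the same strand 386 nt after its stop codon. It is the only RPS gene with an annotated gene on its own strand less than 500 nt past the stop codon, and RPS7B follows with 1039 nt. Of the 331 annotated genes, 28 have such a neighbor, a snoRNA in 3 of them. The other 2 genes with a snoRNA there, RPL12A and MIN3, had mean WT RTI values of 0.0451 and 0.000838. The part of SNR4 reads in the RTI of RPS26B was not tested.

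RPS12 (YOR369C), a single-copy gene for a protein of the beak of the 40S head, was the only RPS gene whose RTI fell. It had 0.0806, 0.0502 and 0.0595 in the mutant against 0.151, 0.156 and 0.270 in WT replicates 1 to 3. The WT values equal ratios of small whole numbers, so they may rest on few reads, and the read numbers were not available. The mean went from 0.192 ± 0.0675 to 0.0635 ± 0.0156 (SD, n = 3 each), a log2 fold change of -1.54 (standard error 0.50, adjusted p = 0.015 from limma). Here the libraries that are highest for most genes were not: WT replicate 3 stood above WT replicate 1, and sua7-1 replicate 3 was the lowest mutant library. RPS12 missed the threshold without sua7-1 replicate 3 (adjusted p = 0.052 from limma), sua7-1 replicate 4 (0.072) or WT replicate 3 (0.083). The convergent gene RAD17 lies 145 nt after its stop codon, the shortest such distance among the RPS genes, 22 of which have an opposite-strand gene within 500 nt.

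At the low end were RPS22A, RPS18B and RPS4A, the genes with the 3 lowest mean WT RTI values, none of which passed the test at a pseudocount of 0.002. RPS22A, for a protein of the body, had 0.000298, 0.000967 and 0.00172 in the mutant against 0.000431, 0.000457 and 0.000753 in WT replicates 1 to 3. Its strains overlapped (log2 fold change 0.21, adjusted p = 0.71 from limma). It ends 298 nt from the convergent RPS14B on chromosome X. RPS18B, for a head protein, had 0.00145, 0.00185 and 0.00288 in the mutant against 0.00231, 0 and 0 in WT replicates 1 to 3. It too overlapped (log2 fold change 0.64, adjusted p = 0.27 from limma). In 7 RPS genes the mean WT RTI was under the pseudocount of 0.002, so that their fold changes are understated. Of these, 3 rose (RPS2, RPS23B and RPS31), and the median ratio of the strain means without a pseudocount was 4.85, against 6.65 for the other 20.

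**Figure D4:**
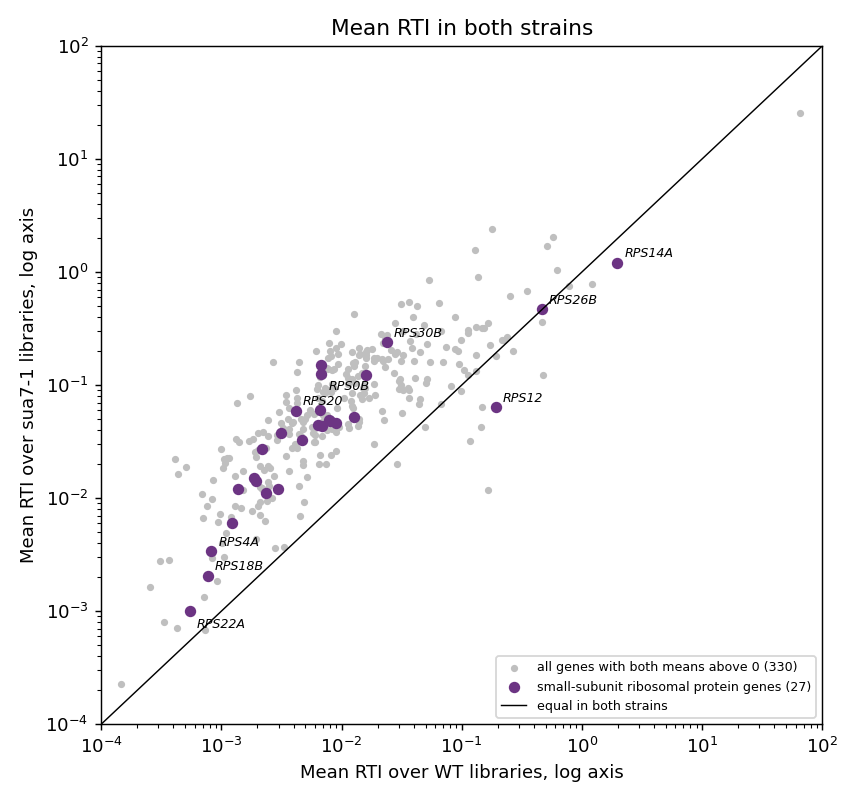
Mean RTI over WT libraries (x) and over sua7-1 libraries (y), both on log axes, for 330 genes with both means above 0 (grey) and for the 27 RPS genes (purple). Most purple points lie above the line of equality within the grey cloud, whereas RPS26B lies on the line and RPS14A and RPS12 below it. The line compares RTI as listed, not divided by library medians.

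Other features of the RPS genes were described without a test. In 18 genes with an intron 14 rose, and in 9 without 6 rose and 1 fell, with median log2 fold changes of 2.40 and 2.07. Of 5 single-copy genes 4 rose and 1 fell (median 2.07), and of 22 genes with a copy 16 rose (median 2.40). On the forward strand 13 of 15 rose (median 2.55) and on the reverse strand 7 of 12 (median 1.88). Of all 337 genes 75.1% rose (median 2.44), and these splits were not made over all genes, so none can be set against its background. The coding sequence is 192 to 786 nt long and under 450 nt in 16 genes, so that the upstream window of those genes can extend into an intron or beyond the coding part.

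Forms of the efficiency element (TATATA, its variant TACATA, the form TATGTA and the form TACGTA) were searched on the transcript strand in the 300 nt after each stop codon. At least 1 of these 4 was found in 25 of the 27 RPS genes (92.6%) and in 80.8% of 5997 protein-coding genes. TATATA, which can overlap itself and the others in TA repeats, was found in 16 RPS genes (59.3%, against 55.4% of all), and the positioning element AATAAA in 12 (44.4%, against 39.2%). RPS1B and RPS2 held none of the 4 elements in this window and both rose. A match is a description of letters, and the poly(A) sites themselves were not used here. The first element with its surrounding bases is shown 5' to 3', with the element in capitals, for genes with a large rise, the gene that fell and those with high RTI in both strains.
RPS0B (144 nt after the stop codon, R64, chrXII:243481-243510, forward strand): atctttatctcaTATATAtttgcttctctc
RPS20 (201 nt, chrVIII:75966-75995, forward strand): atgcaaatataaTATATAtatatatatata
RPS12 (50 nt, chrXV:1028127-1028156, reverse strand): atcacataataaTATATAgttaaactttta
RPS14A (57 nt, chrIII:177426-177455, reverse strand): ttaaaaaatgtgTACATAtaattatatagc
RPS26B (283 nt, chrV:424582-424611, forward strand): ccttttcataccTATATAaatagaagtgtt
An element was thus present after RPS0B and RPS20, after RPS12 and after both genes with high RTI. It lay within 60 nt of the stop codon in RPS12 and RPS14A and much later in RPS26B. Genes that rose also held early first elements (RPS25A at 14 nt, RPS31 at 20 nt) and late ones (RPS30B at 258 nt, RPS23A at 260 nt). The median position was 130 nt in RPS genes that rose and 57 nt in the others, and no test was made.

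Other parts of the ribosome were set beside these genes. Of 39 large-subunit and stalk protein genes (RPL and RPP), 28 rose and 11 passed in neither direction, with a median log2 fold change of 2.22, and 2 of them rose once library medians were divided out. Of 27 listed proteins that bind the 40S subunit, 6 were measured and all 6 rose: ASC1, the RACK1 homolog on the head, by 2.12 on the log2 scale, the ribosome clamp STM1 by 3.35, the cap-binding factor CDC33 by 2.83, the eIF3 subunits RPG1 and TIF34 by 2.88 and 2.79, and the eIF2 subunit GCD11 by 4.00. Of all 337 genes 75.1% rose, against 71.8% of the large-subunit and stalk genes. The changes of the 6 genes are of RTI as listed, not divided by library medians. These shares describe the lists and were not tested against the other genes.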

How the data were processed

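The authors trimmed adapters with cutadapt, aligned reads to S288C (R64-3-1 by the methods, R64 by the submitters' processing notes, with an aligner not given in the sources used here) and deposited for each gene and library the RTI, a ratio of reads 50 to 500 nt after and before the mRNA 3' end. By their methods, mRNAs of 500 nt or more with sufficient coding reads and no same-strand gene for 500 nt were kept, although some annotated same-strand genes lie closer to the stop codon. Each of the 337 genes has an RTI in 5 or more libraries. Their strain means, log2 ratios and p-values are also in the table and were not used. No read numbers were used, so no count test was possible.

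Here, 27 RPS genes of the main block were taken by name, and 15 of them repeat in the second block of 168 rows. Of the 337 genes, 331 matched the R64 annotation (a later release than the authors'). Limma 3.58.1 in R 4.3.3 was fitted to log2(RTI + 0.002) of all 337 genes with strain as the only factor. The fit used 3 sua7-1 and 4 WT libraries (the last WT library covers 38 genes), with Benjamini-Hochberg adjustment over all genes. It was tested on simulated data with a floor under the baseline RTI and no shift shared by the genes of a library. Very low baselines and such shifts were therefore not covered by that test. The pseudocount understates changes of genes with low RTI. The sources name 3 biological replicates per strain without naming them among the 4 WT libraries, so p-values measure the spread between libraries, which may be technical. Exact permutation tests used scipy 1.17.1 in Python 3.11.15. Sequences were read from the RefSeq R64 genome.

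Values in every library were given for the 5 largest and 3 smallest changes, falls, WT means of 0.1 or more, pairs measured in both copies and RPS18A, and for a few other members. Some members are not reported here by name and enter only counts, medians and fits. The members and lists were chosen with earlier results of these data known. Alternatives were pseudocounts of 0.0005 and 0.01, a mean RTI of at least 0.005, an RTI in at least 6 libraries, zeros left out, the trend and robust options of limma, division by library medians, a replicate block, and leaving out each library.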

Additional observations from a re-analysis of the deposited data

Results flagged for a closer look

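WT replicate 1 stood apart from the other WT libraries in the median RTI of the RPS genes, at 0.0118 against 0.00191 to 0.00282, and in RPS23A, at 0.0126 against 0.000987 to 0.00272. In each case its gap to the next library made up more than 0.829 of the range of the 4 WT values, and 6 groups were examined. Chance exceeds this limit in about 5% of groups if values are normally distributed, which was not tested. The gaps were taken on RTI as listed, not on the log2 scale of the fit, where they are smaller shares of the range. The WT replicate 4 median rests on 5 genes.

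RPS18A (YDR450W), for a protein of the head whose copy RPS18B was among the lowest, is listed only outside the main block, in 2 rows that differ in whether WT replicate 1 has a value. Its RTI was 0.00996, 0.0354 and 0.0279 in sua7-1 replicates 2, 3 and 4, with a mean of 0.0244 ± 0.0131 (SD, n = 3), against 0.00606, 0.00205 and 0.0020 in WT replicates 1, 2 and 3. Every mutant value was above every WT value, and the ratio of the strain means was 7.25, or 12.1 in the row without WT replicate 1. It was left out of the fit and has no test.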

How the results depend on the processing

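Of 20 rises and 1 fall among the RPS genes, 15 calls remained with any single library left out. The count that rose was 15 to 21, the count that fell 0 to 1 and the median log2 fold change 1.87 to 2.81. The fall of RPS12, the only one, was lost without sua7-1 replicate 3, sua7-1 replicate 4 or WT replicate 3, and RPS26B, at -0.14 to 0.27, changed sign without sua7-1 replicate 4 (-0.062) and without WT replicate 4. After division of each library by its median RTI, 0 RPS genes rose (0 in the head, 0 in the body and platform), 3 fell (RPS12, RPS14A and RPS26B), 2 kept every mutant library above every WT library, 2 large-subunit genes rose, and the median RPS change was -0.21. Under that division the log2 fold change turned negative for 17 of the 27 genes, among them RPS26B (-2.93), RPS7B (-0.88), RPS22A (-0.77), RPS27B (-0.55), RPS4A (-0.47), RPS19B (-0.46), RPS25A (-0.46), RPS4B (-0.40), RPS7A (-0.25), RPS31 (-0.24), RPS2 (-0.17), RPS14B (-0.17), RPS27A (-0.064) and RPS18B (-0.059). Over all genes it gave 21 rises and 55 falls, against 253 and 3. The division removes by construction any shift shared by the genes of a library. RPS18B also turned negative with zeros taken as missing (-0.10). At a pseudocount of 0.01, 16 RPS genes rose (RPS14B, RPS19B, RPS23B and RPS31 no longer did), and 21 at 0.0005. With zeros taken as missing 19 rose, RPS14B being lost. Of 327 repeats for the single genes named, 281 kept direction and call.

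Deviations from the strain means were correlated across genes between libraries of both strains. For the same-numbered replicates 2, 3 and 4 the correlations were 0.13, -0.02 and -0.03, the last over 38 genes. For libraries with unlike numbers they ran from -0.20 to 0.22. A correlation across genes cannot show a shift shared by all genes of a library, so whether the numbers pair libraries remains unknown. With a replicate block 20 RPS genes rose, 1 fell and the median log2 fold change was 2.75. That fit used only replicates 2 to 4 of both strains and so left out WT replicate 1. In the 22 RPS genes without a value in WT replicate 4, its strain effect rests on replicates 2 and 3 alone. Depth is unknown, so an RTI listed at 0 cannot be told from too few reads. A low RTI above 0 needs many upstream reads but may rest on few downstream reads, and its counting error is unknown.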
